A study of Mus musculus with 29 samples.

Results

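The 8 genes H2-Aa, H2-Ab1, H2-Eb1, H2-DMa, H2-DMb1, Cd74, Ciita and Ctss, which serve antigen presentation by major histocompatibility complex (MHC) class II, were followed across all libraries of a mouse feeding study. They were chosen by symbol, each matched to 1 Ensembl gene, and are 8 of the 38124 genes in the tables. RNA sequencing was done on liver and on whole hindlimb skeletal muscle of male C57BL/6 mice, 14 weeks old on purchase and 4 months old at assignment to the diets. The calorie-restricted groups, named soy, fish and lard for their fat, received 60% of the ad libitum intake (8.6 kcal/day). The control group received 95% of it (13.6 kcal/day), so it was itself held slightly below free feeding. No source used here gives the age at tissue collection or the fat of the control feed. Each library is 1 mouse, and 13 of the 16 mice have both tissues. Liver was represented by 4 soy, 4 fish, 4 lard and 3 control mice, and muscle by 3 soy, 3 fish, 4 lard and 4 control mice.

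Class II molecules are alpha-beta pairs that carry peptides from ingested protein to the surface of dendritic cells, macrophages and B cells, where CD4 T cells read them. H2-Aa and H2-Ab1 encode the alpha and beta chains of I-A, and H2-Eb1 the beta chain of I-E. Cd74, the invariant chain, occupies the groove during transport, Ctss (cathepsin S) cuts it away, and the H2-DM pair (H2-DMa and H2-DMb1) exchanges its last fragment for peptide. Ciita is the coactivator that turns the family on. It does not bind DNA itself but docks on factors held at the X and Y boxes of the class II promoters.

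Promoter sequence from RefSeq (GRCm38.p6, 250 bases before to 50 after the start site) was at hand for 5 of the 8 genes, and 3 are printed because they show the shared elements on which Ciita acts. Capitals mark letters matching AACNGATG (X box), GATTGG or its longer form CTGATTGG (Y box, which contains GATTGG), and TGACGTCA (a cAMP response element). All lines run 5′ to 3′ on the gene's strand and end before the start site.
H2-Eb1, chr17:34305766-34305824, plus strand: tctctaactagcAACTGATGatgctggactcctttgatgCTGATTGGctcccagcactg
H2-DMb1, chr17:34153087-34153146, plus strand: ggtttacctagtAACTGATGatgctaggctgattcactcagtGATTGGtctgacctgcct
H2-Aa, chr17:34287855-34287909, minus strand: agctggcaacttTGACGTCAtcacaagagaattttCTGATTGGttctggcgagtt

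The X letters began 89 bases before the start site in H2-Eb1 and 92 before it in H2-DMb1, each with Y letters downstream. H2-Aa held no X match, but the response element began 74 bases and the long Y form 51 bases before the start. The letters were chosen with these promoters in view. On either strand, 2.32% of 32851 mouse promoters of the same length held AACNGATG, 16.1% GATTGG, 4.10% CTGATTGG and 1.79% TGACGTCA. Of the 32851, 13 held X followed by Y within 60 bases on 1 strand. In H2-DMa the match was GATTGG alone, 199 bases before the start, and in Ctss AACNGATG alone, 207 bases before it. These are matches of letters, not measured binding.

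The genes lie apart from one another except for the 5 H2 genes, which share chromosome 17. Per the tables (GRCm38), H2-DMa spans chr17:34135182-34139101, H2-DMb1 chr17:34153072-34160223, H2-Ab1 chr17:34263209-34269418, H2-Aa chr17:34282744-34287827 and H2-Eb1 chr17:34305883-34316199. Ciita lies at chr16:10488178-10527564, Ctss at chr3:95526786-95556403 and Cd74 on chromosome 18. The H2-DMb1 promoter stretch printed above falls inside the span given for that gene. Its distances count from the RefSeq start site, which lies downstream of the first base of that span. In H2-DMb1 84.4% of exon reads were unique, since its neighbour H2-DMb2 is nearly identical, so its values are less certain. In the other 7 genes every exon read was unique.

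Libraries held 11315231 to 27106865 exon reads (median 15316165), and levels are given as CPM, a gene's exon reads in each 1000000 exon reads of the library. Hepatocyte markers summed to 97680 to 158570 CPM in the livers and 174 to 583 CPM in the muscles. Skeletal muscle markers summed to 128221 to 239926 CPM in the muscles and 155 to 3109 CPM in the livers. A pair of libraries stood apart in each tissue. The control muscles of mice 1071 and 1120 had 307 and 1290.2 CPM of neutrophil markers, against 1.1 to 3.2 CPM in the other muscles. The soy livers of mice 1073 and 1159 had 5.47% and 5.41% of their gene reads outside exons, against 7.9 to 8.9% in the other livers. Many of the edgeR calls, differences, counts and correlations that touch either pair are also given without it. DESeq2 calls, the fit with a term for each mouse and ratios of RPKM are given with all libraries only.

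All 8 genes were read in every library. Scaled by exon length (the authors' RPKM), Cd74 was the most abundant in both tissues, at 34.9 ± 24.0 RPKM in muscle (SD, n = 14) and 63.0 ± 19.0 in liver (n = 15). H2-Aa followed at 19.5 ± 11.2 RPKM in muscle and 33.1 ± 10.98 in liver. H2-Ab1 and H2-Eb1 were level with each other in both tissues: the ratio of their RPKM averaged 0.97 ± 0.11 in muscle and 1.01 ± 0.05 in liver. Ctss stood beside these chains in liver, at 24.9 ± 4.9 RPKM, and below them in muscle, at 5.1 ± 3.2 RPKM. The DM chains lay between 1.5 and 3.0 RPKM on average. Ciita was the scarcest, at 0.19 ± 0.10 RPKM in muscle and 0.36 ± 0.17 in liver, which is 4 to 61 reads per library.

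In hindlimb muscle all 8 genes had lower mean levels in calorie-restricted mice, and 1 of them, the invariant chain Cd74, passed the test. Cd74 had 32.1, 86.9 and 11.7 CPM in the soy muscles (mice 1065, 1073 and 1141) and 33.6, 17.8 and 52.1 CPM in the fish muscles (1067, 1123 and 1124). It had 45.5, 17.2, 19.8 and 37.5 CPM in the lard muscles (1100, 1101, 1102 and 1130), against 116, 75.0, 121 and 66.7 CPM in the control muscles (1071, 1095, 1120 and 1121). Every fish and lard muscle was below every control, while soy muscle 1073 reached into the control range and soy muscle 1141 was the lowest of all. Cd74 averaged 35.4 ± 22.3 CPM in restricted muscle (SD, n = 10) and 94.6 ± 27.7 in control muscle (n = 4). It fell by 1.45 ± 0.37 on the log2 scale (SE; adjusted p = 0.0481, edgeR quasi-likelihood test, Benjamini-Hochberg over 13104 genes). In bulk tissue, fewer antigen-presenting cells and less RNA in each of them cannot be told apart.

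The call is a narrow one. Cd74 was the 1 member of 8 that passed, where 3.49% of all genes tested passed in either direction and 2.33% were lower. At an unadjusted p under 0.05, 7 of the 8 were lower, against 15.5% of all genes. Without control muscles 1071 and 1120 the Cd74 difference was -1.04 ± 0.48 with an adjusted p of 0.51, and no member passed. The other 7 differences then lay between -1.03 (H2-Aa) and -0.41 (Ciita). When each library was left out in turn, Cd74 passed in 3 of 14 removals (soy 1073, control 1095 and control 1121), with edgeR adjusted p from 0.0245 to 0.167.

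The antigen-binding chains had a similar order of libraries to Cd74. H2-Ab1 had 9.8, 33.5 and 4.6 CPM in soy muscle, 11.5, 7.2 and 21.1 in fish muscle and 15.6, 6.4, 7.3 and 14.5 in lard muscle, against 33.5, 27.97, 37.8 and 22.2 in control muscle (mice in the order given for Cd74). Soy muscle 1073 again lay among the controls, and the other 9 restricted muscles lay below all of them. The H2-Ab1 difference was -1.24 ± 0.36 (adjusted p = 0.0656, edgeR). H2-Aa ranged from 5.5 to 47.9 CPM in restricted muscle (median 17.2) and from 32.1 to 40.7 in control muscle, a log2 difference of -1.05 ± 0.36 (adjusted p = 0.0971). H2-Eb1 ranged from 4.6 to 36.01 CPM (median 10.8) in restricted and 24.0 to 35.9 in control muscle, a difference of -1.21 ± 0.35 (adjusted p = 0.0626). None of these 3 chains passed edgeR's test with all libraries in the fit, whereas DESeq2 called all 3 (adjusted p = 0.0477 for H2-Aa, 0.0188 for H2-Ab1 and 0.0170 for H2-Eb1), where it called 9.67% of all genes.

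The peptide-exchange chains and cathepsin S had differences of like size. H2-DMb1 ranged from 0.78 to 4.7 CPM in restricted muscle (median 1.3) and from 2.8 to 4.8 in control muscle, a log2 difference of -1.20 ± 0.32 (adjusted p = 0.0523). H2-DMa ranged from 0.97 to 5.4 CPM (median 1.5) in restricted and 2.5 to 5.7 in control muscle, a difference of -0.997 ± 0.35 (adjusted p = 0.10). Ctss ranged from 2.0 to 13.6 CPM (median 5.5) in restricted and 8.1 to 19.9 in control muscle, a difference of -0.999 ± 0.28 (adjusted p = 0.0606). Control muscle 1120 alone gave the top of the Ctss range, the other 3 controls lying between 8.1 and 8.9 CPM.

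**Figure D1:**
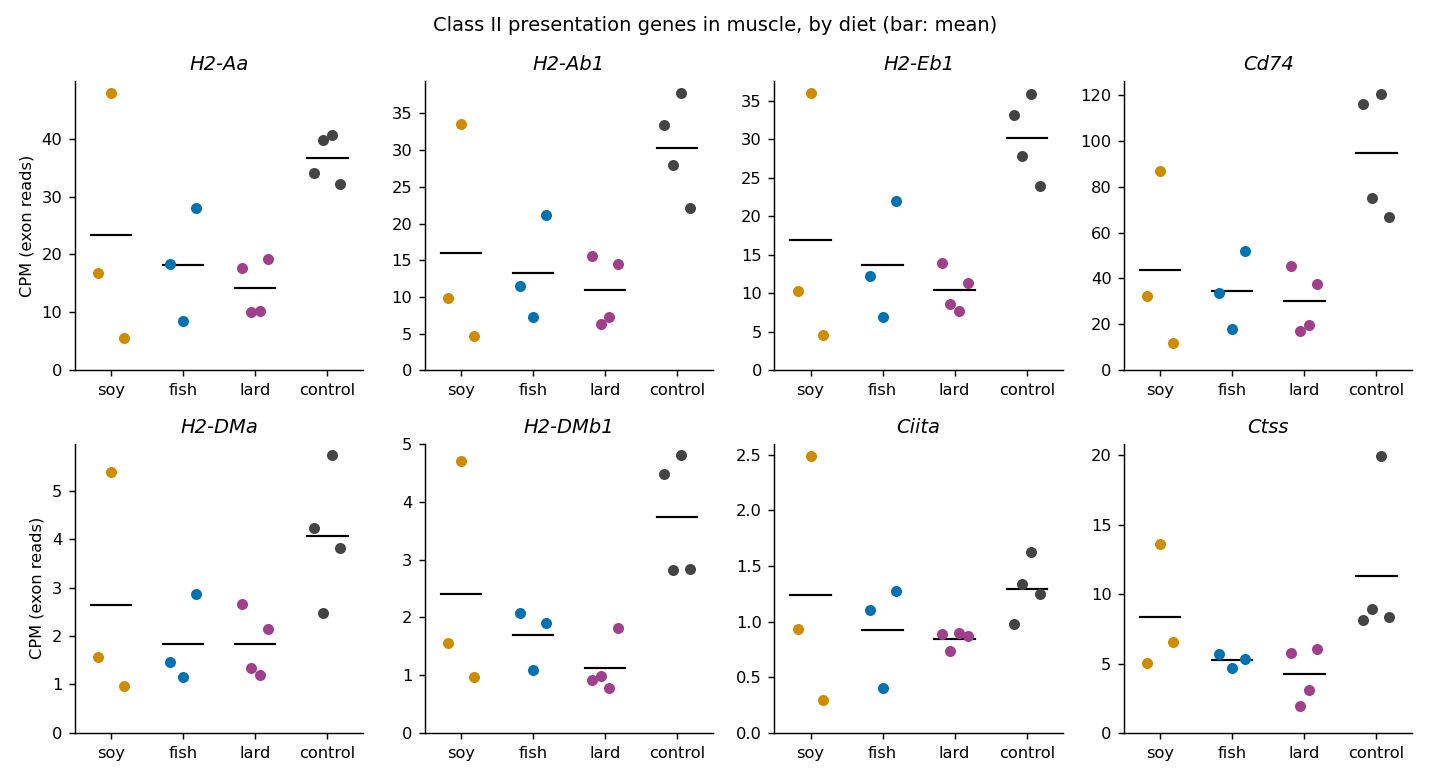
CPM of the 8 genes in muscle (1 panel per gene, own linear axis from 0), for soy, fish, lard and control mice. Each point is 1 mouse and each bar the group mean. In every panel soy mouse 1073 lies within or above the control range, and except for Ciita nearly all other restricted muscles lie under it.

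No difference in Ciita was detectable in muscle. It had 0.94, 2.5 and 0.30 CPM in soy muscle, 1.1, 0.41 and 1.3 in fish muscle and 0.89, 0.73, 0.90 and 0.87 in lard muscle, against 0.98, 1.3, 1.6 and 1.3 in control muscle. The log2 difference was -0.41 ± 0.37 (adjusted p = 0.49, edgeR; 95% interval -1.20 to 0.39), and these are 4 to 37 reads per library. The ratio of Ciita to H2-Ab1 in RPKM was 0.0130 to 0.0286 in restricted muscle and 0.0067 to 0.0130 in control muscle. With 1 more digit, the lowest restricted ratio was 0.01305 and the highest control ratio 0.01297, so the ranges nearly touched without overlap. The ratio of Ciita to H2-Ab1 was examined after the values were seen. It is given without a test and without a share of other ratios so placed.

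Single libraries weighed on these results. Without soy muscle 1073, 7 of the 8 genes passed, Ciita being the exception, with log2 differences from -1.70 for Cd74 to -1.12 for Ctss and edgeR adjusted p from 0.0206 to 0.0386. Of all genes, 5.77% passed in that fit. Without control muscle 1121 there were 5 calls, beside 14.1% of all genes, and without control muscle 1095 there were 3, beside 13.6%. With any other single muscle left out, there were 0. The median of the 8 differences was -1.13, where the median of all genes tested was -0.02. Without control muscles 1071 and 1120 it was -0.89, and 0.0151% of all genes passed.

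Some markers of immune cells were also lower in restricted muscle, although the summed levels overlapped. Macrophage markers (1 of 11 tested passed as lower) summed to 47.2 to 217.4 CPM in restricted and 127 to 216.6 in control muscle. Monocyte markers (2 of 4 lower) summed to 73.4 to 245 CPM in restricted and 153 to 373 in control muscle. Dendritic cell markers (0 of 5 passed) summed to 12.8 to 35.6 CPM in restricted and 23.7 to 32.4 in control muscle. In each of these lists the highest restricted value was that of soy muscle 1073. In each list 1 of the 10 restricted muscles was above the lower of control muscles 1095 and 1121.

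B cell markers (1 of 3 lower) summed to 7.6 to 23.3 CPM in restricted and 13.2 to 43.4 in control muscle, and T and NK cell markers (0 of 1 passed) to 0.34 to 2.5 CPM in restricted and 1.5 to 7.4 in control muscle. Neutrophil markers (2 of 2 lower) summed to 1.1 to 3.2 CPM in restricted and 1.7 to 1290.2 in control muscle, and erythroid markers (2 of 5 lower) to 225 to 1082 CPM in restricted and 219 to 7685 in control muscle. B cell precursor markers summed to 0 to 0.48 CPM in restricted and 0.07 to 5.7 in control muscle. Over control muscles 1095 and 1121 alone they summed to 0.07 to 0.35 CPM. Vpreb3 and Dntt were the most abundant of that list in muscle, and Rag1 and Rag2 were at 0 in every library. None of its genes was abundant enough to test in muscle. Endothelial markers (0 of 9 passed) summed to 221 to 386 CPM in restricted and 246 to 305 in control muscle. The part of any of these cells in the class II differences was not tested. Without control muscles 1071 and 1120 no marker of these lists passed edgeR's test in muscle. At an unadjusted p under 0.05 there were then 3 of 5 dendritic cell, 1 of 11 macrophage, 1 of 4 monocyte, 1 of 9 endothelial and 1 of 1 T and NK cell markers, beside 9.96% of all genes. Over the 2 controls left, macrophage markers summed to 142 to 170 CPM, monocyte markers to 214 to 228 and B cell markers to 13.2 to 15.0. Control muscles 1095 and 1121 had 2.0 and 1.7 CPM of neutrophil markers, inside the range of restricted muscle, and 75.0 and 66.7 CPM of Cd74.

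Diet by diet, against the same 4 control muscles, no member passed, where the share of all genes that passed was 0% for soy, 0.00763% for fish and 0% for lard. The Cd74 differences were -1.23 ± 0.51 for soy, -1.51 ± 0.52 for fish and -1.62 ± 0.47 for lard (edgeR adjusted p = 0.26, 0.17 and 0.17). In the lard muscles 7 of 8 members lay wholly below the controls, H2-DMa being the exception, against 4.65% of all genes. In the fish muscles 6 of 8 did, against 4.99% of all genes, and in the soy muscles 0, against 3.29%. These comparisons share their controls. With DESeq2 the counts of members were 0 for soy, 0 for fish and 3 for lard. The DESeq2 share of all genes for single diets is not given here, so these counts are left unweighed. For restricted against control in muscle, DESeq2 called 9.67% of all genes and edgeR 3.49%. At an unadjusted p under 0.05, edgeR counted 1 member for soy, 7 for fish and 7 for lard, beside 17.4%, 18.4% and 17.3% of all genes. Without control muscles 1071 and 1120 the Cd74 differences were -0.81 ± 0.60 for soy, -1.10 ± 0.61 for fish and -1.20 ± 0.56 for lard (edgeR adjusted p = 0.71, 0.50 and 0.78). The H2-DMa difference in lard muscle was then -0.71, against -1.08 with all libraries. No member passed there either, and 0, 0 and 4 had an unadjusted p under 0.05, beside 9.74%, 11.8% and 6.41% of all genes. Against the 2 controls left, 0 members in soy, 6 in fish and 7 in lard muscle lay wholly lower, beside 8.07%, 11.3% and 11.6% of all genes. Fat against fat, 0 members and 0% of all genes passed in muscle by edgeR, and DESeq2 also called 0 members. The lowest unadjusted p values of members by edgeR were 0.039 for Ctss and 0.043 for H2-DMb1. Both were in lard against soy, with an adjusted p of 0.99995. For Cd74 the difference was -0.28 for fish against soy (95% interval -1.44 to 0.87), -0.39 for lard against soy (-1.46 to 0.68) and 0.11 for fish against lard (-0.97 to 1.18). Each of these intervals reaches past a 2-fold change.

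**Figure D2:**
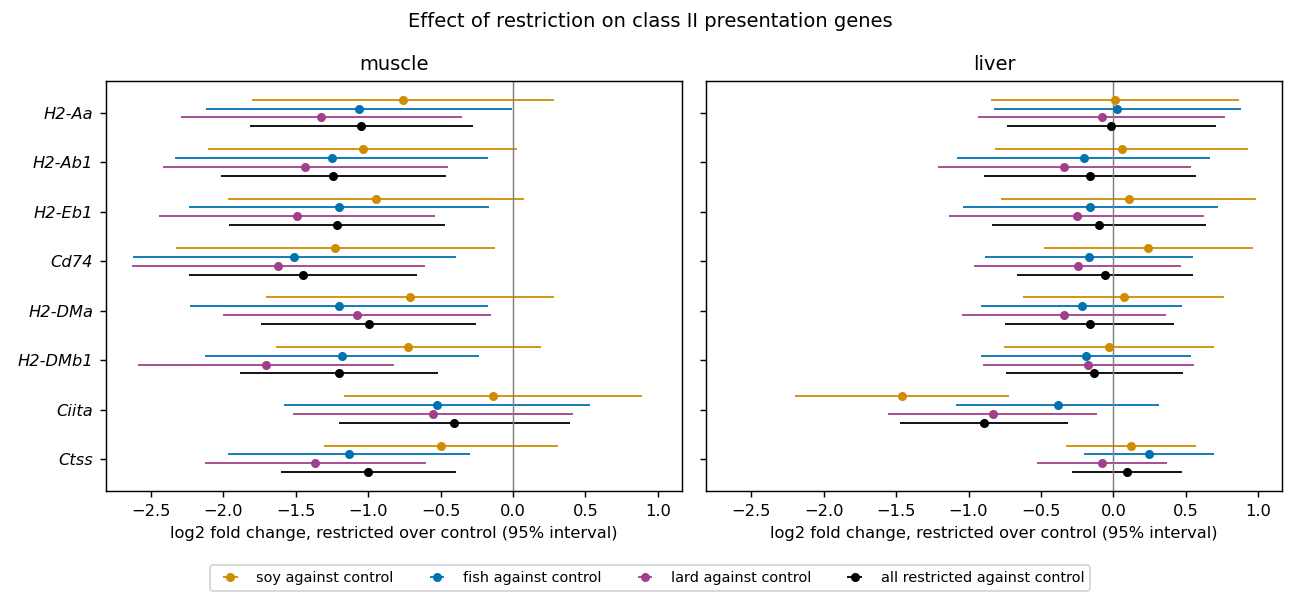
Log2 fold changes over control with 95% intervals for the 8 genes in muscle (left) and liver (right), for soy, fish, lard and all restricted mice together. In muscle all 8 estimates for all restricted mice lie below 0, with intervals that exclude 0 for 7 of the 8. In liver all intervals for the restricted mice together span 0 except that of Ciita.

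In liver the class II chains did not differ detectably with restriction. Cd74 had 97.9, 155, 47.3 and 131 CPM in the soy livers (mice 1065, 1073, 1141 and 1159), 92.5, 90.8, 82.3 and 111 in the fish livers (1067, 1123, 1124 and 1125) and 115, 61.7, 59.2 and 89.7 in the lard livers (1100, 1101, 1102 and 1130). The control livers had 102, 87.9 and 120 CPM (1095, 1120 and 1121), inside the span of the restricted ones. The log2 difference was -0.06 ± 0.28 (95% interval -0.66 to 0.55; adjusted p = 0.96, edgeR). For H2-Aa, H2-Ab1 and H2-Eb1 the differences were -0.01, -0.16 and -0.10, with 95% intervals that together run from -0.89 to 0.71. H2-DMa differed by -0.16, H2-DMb1 by -0.13 and Ctss by 0.10. With soy livers 1073 and 1159 left out, the log2 difference was -0.29 ± 0.23 for Cd74 (adjusted p = 0.56) and, for H2-Ab1, -0.44 ± 0.28 (adjusted p = 0.46). No member passed by edgeR or DESeq2, where 1.08% of all genes did by edgeR, and Ciita alone had an unadjusted p under 0.05. The median of the 8 was -0.12 beside 0.01 for all genes tested.

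Restricted livers differed widely from one another. H2-Ab1 ranged from 12.7 to 55.0 CPM over the 12 restricted livers (median 29.0) and from 34.4 to 41.8 over the 3 controls. Soy mouse 1073 had the highest and soy mouse 1141 the lowest H2-Ab1, H2-Eb1, H2-DMb1 and Cd74 of all 15 livers.

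**Figure D3:**
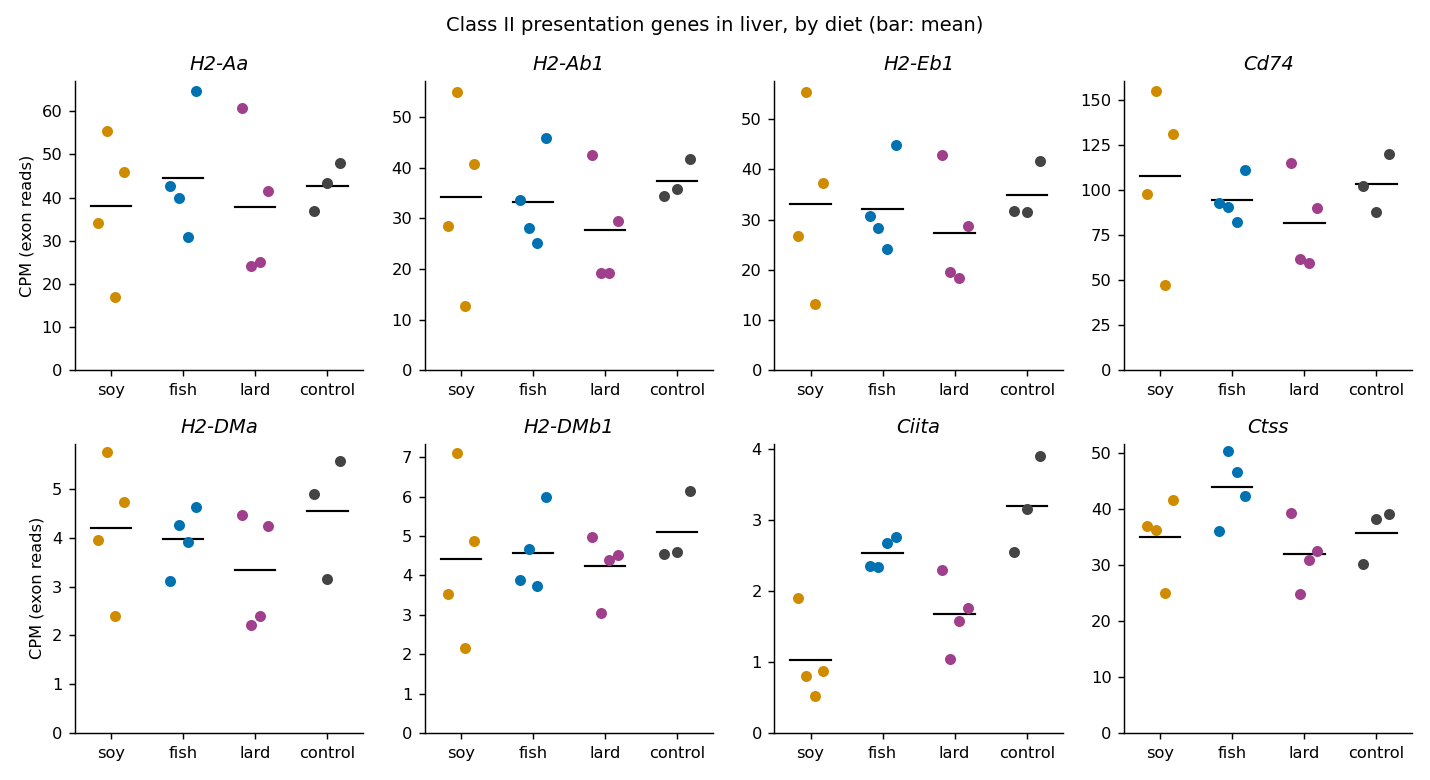
CPM of the 8 genes in liver (1 panel per gene, own linear axis from 0), for soy, fish, lard and control mice. Each point is 1 mouse and each bar the group mean. The groups overlap in every panel except that of Ciita, where all soy and lard livers lie below the control livers.

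The coactivator Ciita lay below the controls in every soy and lard liver, without passing edgeR's test. It had 1.9, 0.81, 0.52 and 0.87 CPM in the soy livers, 2.4, 2.3, 2.7 and 2.8 in the fish livers and 2.3, 1.0, 1.6 and 1.8 in the lard livers, against 2.6, 3.2 and 3.9 in the control livers. All 4 soy livers and all 4 lard livers were below every control, where 11.3% and 12.7% of all genes were so placed, and the fish livers overlapped the controls. Soy against control gave a log2 difference of -1.46 ± 0.35 (95% interval -2.20 to -0.72), with an edgeR adjusted p of 0.0521 that just missed the threshold. No member passed there, where 1.17% of all genes did. The soy livers held 7 to 40 Ciita reads and the control livers 36 to 61. B cell markers (0 of 6 passed) summed to 2.9 to 7.2 CPM in the soy livers and 9.2 to 11.9 in the control livers, without overlap. Dendritic cell markers (0 of 9) summed to 14.4 to 18.7 CPM in soy and 16.2 to 22.1 in control livers, and macrophage markers (0 of 14) to 463 to 853 CPM in soy and 604 to 706 in control livers. The part of these cells in the Ciita values was not tested.

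The Ciita result moved with the settings. DESeq2 gave an adjusted p of 0.0047 for soy against control, and leaving out soy liver 1065 or 1141 gave edgeR values of 0.0087 and 0.0360. The share of all genes passing in these fits is not given here. With the soy livers of mice 1073 and 1159 left out, the difference was -1.26 ± 0.43 (adjusted p = 0.22). With the lard and fish livers kept out of the fit it was -1.47 ± 0.40 (adjusted p = 0.31). Over all restricted livers it was -0.89 ± 0.27 (adjusted p = 0.17). Lard against control gave -0.83 ± 0.34 (adjusted p = 0.39, edgeR) and fish against control -0.38 ± 0.33 (adjusted p = 0.87), where 0.508% and 0.383% of all genes passed and no member did.

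Between fats, all 4 fish livers had more Ciita than all 4 soy livers, as 9.34% of genes did. The log2 difference was 1.08 ± 0.33 (adjusted p = 0.11, edgeR), and it did not pass, as no other member did, where 0.0938% of all genes passed. Without soy liver 1065 it was 1.54 ± 0.31 with an adjusted p of 0.0148. Without soy livers 1073 and 1159 it was 0.87 ± 0.41 (adjusted p = 0.54). For the other 7 genes fish minus soy lay between -0.41 and 0.12, and between 0.20 and 0.70 without that pair, the lowest adjusted p there being 0.57. Lard against soy gave a Ciita difference of 0.63 ± 0.34 (adjusted p = 0.34) and fish against lard 0.45 ± 0.32 (adjusted p = 0.71), where 0% and 0.203% of all genes passed.

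**Figure D4:**
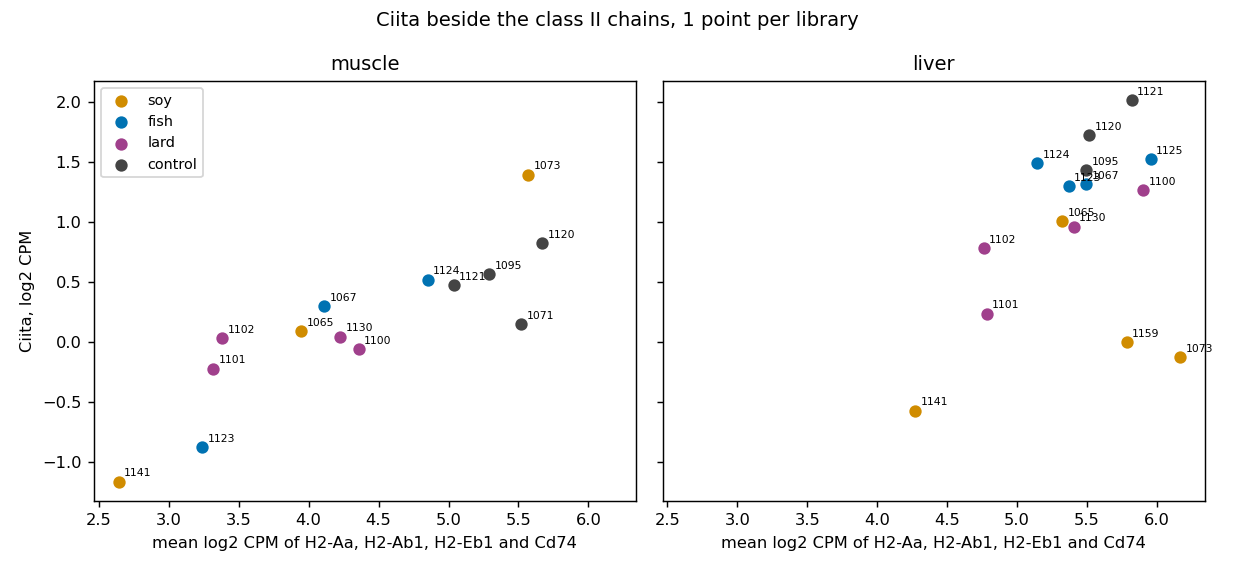
Ciita (log2 CPM) against the mean log2 CPM of H2-Aa, H2-Ab1, H2-Eb1 and Cd74, 1 point per library, in muscle (left) and liver (right), with mouse numbers. In muscle the points lie along a slope, and in liver they do so too except for soy mice 1073 and 1159, which combine high chain levels with low Ciita.

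Across the 14 muscles, Ciita tracked the 4 genes H2-Aa, H2-Ab1, H2-Eb1 and Cd74 with Pearson r of 0.81 to 0.91 on log2 CPM. Across the 15 livers the same r was 0.27 to 0.46, a range set by soy livers 1073 and 1159: over the other 13 livers it was 0.80 to 0.88. Without control muscles 1071 and 1120 it was 0.88 to 0.93 over 12 muscles. These values without the pairs were added after the data were seen. The 4 genes tracked each other with r of 0.96 to 0.99 in muscle and 0.90 to 0.99 in liver. These are descriptions over libraries that share diets, depth and tissue pieces. In liver, soy mice 1073 and 1159 had 155 and 131 CPM of Cd74, the highest of all livers, beside 0.81 and 0.87 CPM of Ciita, and soy mouse 1141 was lowest in both.

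Between muscle and liver of control mice, 6 of the 8 genes did not pass the test. Cd74 averaged 94.6 ± 27.7 CPM in control muscle (n = 4) and 103 ± 16.1 in control liver (n = 3), a log2 difference of -0.13 ± 0.45 (95% interval -1.05 to 0.79), and the 3 antigen-binding chains differed by -0.21 to -0.30. Ciita and Ctss were lower in muscle, by -1.32 ± 0.41 and -1.70 ± 0.30 (edgeR adjusted p = 0.0052 and 1.5e-05). Those 2 of 8 members compare with 73.6% of all genes that passed between the tissues and 35.5% that were lower in muscle. Of the class I presentation list, 12 of 12 tested genes were lower in muscle, with a median log2 difference of -2.06, where the 8 class II genes had a median of -0.27. Without control muscles 1071 and 1120, Ciita and Ctss still passed, at -1.33 and -2.07, and Cd74 was at -0.56 ± 0.52. Neither fit has a term for the mouse, although control mice 1095, 1120 and 1121 gave both tissues.

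The restriction effect was not shown to differ between the tissues. The difference of effects, muscle minus liver, was -1.39 ± 0.53 for Cd74 (adjusted p = 0.18, edgeR over 14150 genes), -1.08 ± 0.35 for Ctss (adjusted p = 0.12) and 0.50 ± 0.48 for Ciita (adjusted p = 0.57). Without the pair that stood apart in each tissue, the Cd74 value was -0.76 ± 0.57 (adjusted p = 0.75). No member passed by edgeR or DESeq2, where 0.657% of all genes did by edgeR. At an unadjusted p under 0.05, 3 of the 8 did, all with the lower value in muscle, against 11.3% of all genes. That fit has no term for the mouse, although 13 mice gave both tissues. With a term for each mouse, to which the 3 mice with 1 tissue add nothing, Cd74 was at -1.22 ± 0.29 (unadjusted p = 0.00093, adjusted p = 0.16, edgeR). No member passed, where 0.113% of all genes did. At an unadjusted p under 0.05 there were 6 of the 8, all lower in muscle, beside 10.8% of all genes in either direction. Control mouse 1120, of the pair that stood apart in muscle, was kept in that fit. No fit with a term for each mouse was made without the pairs. Within a mouse, log2 Cd74 in muscle minus liver was -2.34 to -0.66 in the 10 restricted mice (mean -1.49 ± 0.51 SD), against -0.44, 0.46 and -0.85 in control mice 1095, 1120 and 1121 (mean -0.28 ± 0.67 SD). It was below 0 in all 10 restricted mice and in 2 of the 3 controls, and the ranges overlap.

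Mice high in Cd74 in one tissue tended to be high in the other. Over the 13 mice with both libraries, log2 CPM in muscle and liver correlated with Pearson r = 0.74 (permutation p = 0.0034) and Spearman rho = 0.60 (permutation p = 0.0345; two-sided). It was the only relation across mice that was tested. Without soy mice 1073 and 1141, the 2 farthest from the liver median, r was 0.57 (permutation p = 0.062), so the call rests on having those mice in it. Within the 10 restricted mice r was 0.86 (permutation p = 0.0020). After each diet's mean was subtracted, r over the 13 mice was 0.77. Without mice 1073 and 1120, of the libraries that stood apart, r over 11 mice was 0.81 (permutation p = 0.0025).

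**Figure D5:**
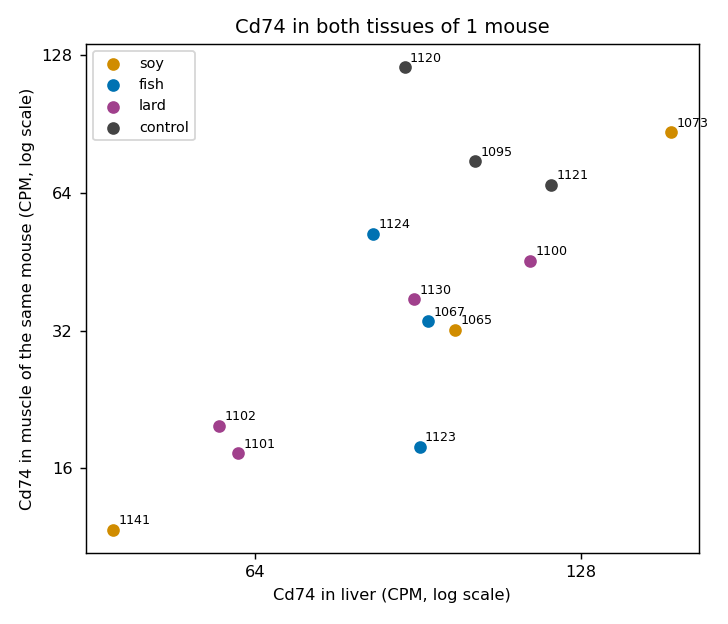
Cd74 in muscle against Cd74 in liver of the same mouse (CPM, both axes logarithmic, 13 mice, coloured by diet, with mouse numbers). Soy mice 1141 and 1073 mark the low and high ends in liver, and the 3 control mice lie high in muscle for their liver level.

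Other genes of the class II pathway gave few calls. Of 24 other pathway genes (DM and DO relatives, X and Y box factors, lysosomal proteases, co-stimulators), 19 were tested in muscle and 22 in liver, and none passed edgeR's test for restricted against control in either tissue. At an unadjusted p under 0.05 there were 11 in muscle, in either direction, beside 15.5% of all genes in the lower direction alone. There were 3 in liver, with no share of all genes set beside them. DESeq2 called 3 in muscle (Rfx5, Lgmn and Ctsl), where it called 9.67% of all genes, and 0 in liver. The median log2 difference of the list was -0.13 in muscle and -0.03 in liver. The lowest p values in muscle belonged to subunits of the RFX complex that holds the X box. Rfx5 averaged 14.3 ± 3.1 CPM in restricted and 8.9 ± 3.2 in control muscle (log2 difference 0.66 ± 0.20, adjusted p = 0.0724, edgeR; 43.6% of its reads were unique). Rfxap averaged 10.2 ± 0.9 CPM in restricted and 12.9 ± 2.0 in control muscle, with a difference of -0.35 ± 0.11 (adjusted p = 0.0767). In liver they belonged to March8, a ubiquitin ligase of the family that removes membrane proteins (-0.36 ± 0.11, adjusted p = 0.15), and Rfxap (0.44 ± 0.17, adjusted p = 0.29). In soy against control livers March8, named here after its values were seen, was lower by a log2 difference of -0.57 ± 0.13 (adjusted p = 0.0443, edgeR). It was 1 call of 22 tested by edgeR, beside 1.17% of all genes. DESeq2 called Rfxap, Ctsh and March8 there, with no share of all genes set beside them here. Without soy livers 1073 and 1159 March8 was at -0.42 ± 0.11 (adjusted p = 0.14, edgeR). Without the pair in each tissue, restricted against control again gave 0 calls by edgeR in the list, with medians of -0.07 in muscle and -0.08 in liver. Rfx5 was then at 0.32 ± 0.16 (adjusted p = 0.53) and Rfxap at -0.15 ± 0.11 (adjusted p = 0.69) in muscle.

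Class I presentation gave 0 calls by edgeR and by DESeq2 among the 12 of 13 genes tested in each tissue. At an unadjusted p under 0.05 edgeR counted 5 in muscle, in either direction, beside 15.5% of all genes in the lower direction alone, and 0 in liver. No share of all genes is set beside the liver counts here. The medians were -0.39 in muscle and -0.02 in liver. In muscle the lowest p values were those of Pdia3, a chaperone of peptide loading (-0.34 ± 0.12, adjusted p = 0.10, edgeR), and Tapbp, the tapasin bridge to the peptide transporter (-0.50 ± 0.18, adjusted p = 0.11). In liver they were those of Tap1, a subunit of that transporter (-0.49 ± 0.26, adjusted p = 0.50), and B2m, the class I light chain (-0.20 ± 0.13, adjusted p = 0.61; 39.6% of reads unique). Nlrc5, the class I counterpart of Ciita, was listed at 0 in every library. Without the pair in each tissue there were again 0 calls by edgeR (0 in muscle and 5 in liver at an unadjusted p under 0.05), with medians of -0.04 in muscle and -0.23 in liver. Pdia3 and Tapbp were then both at -0.08 in muscle, and in liver Tap1 was at -0.65 ± 0.20 (adjusted p = 0.11).

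Interferon gamma is the classical inducer of Ciita, and its pathway list gave 0 calls by edgeR among 10 of 12 genes tested in each tissue. At an unadjusted p under 0.05 there was 1 in muscle, Jak2, which was higher in restricted muscle, and 0 in liver. The share of 15.5% given above counts lower genes alone, so it does not serve for Jak2. DESeq2 called Jak2 in muscle, where it called 9.67% of all genes, and 0 in liver. The list had medians of 0.03 in muscle and -0.14 in liver. In muscle the lowest p values were those of the receptor kinases Jak2 (0.44 ± 0.14, adjusted p = 0.0755, edgeR) and Jak1 (0.25 ± 0.12, adjusted p = 0.20). In liver they were those of the chemokine Cxcl10 (-0.69 ± 0.36, adjusted p = 0.49) and the transcription factor Irf1 (-0.23 ± 0.13, adjusted p = 0.56). Without the pair in each tissue there were 0 calls by edgeR, none with an unadjusted p under 0.05, and Jak2 was at 0.32 ± 0.17 and Jak1 at 0.02 ± 0.10 in muscle.

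The genes nearest in pattern to the class II chains were listed for each tissue. Likeness was Pearson r with the mean log2 CPM of H2-Aa, H2-Ab1, H2-Eb1 and Cd74, among genes averaging at least 1 CPM. Over the 14 muscles the 5 nearest of 12100 other genes were Ift22 (r = 0.94), Clec3b (0.93), the cytokine receptor subunit Csf2rb (0.93), Marcks (0.93) and the lipid transfer protein Pltp (0.93). Over the 15 livers the 5 nearest of 11761 were Ubd (0.88), AW112010 (0.88), the chemokine Cxcl9 (0.87), the integrin subunit Itgb7 (0.86) and the GTPase Igtp (0.84, with 44.7% of its reads unique). Among the members themselves, r with the same mean was 0.95 for H2-DMa, 0.89 for H2-DMb1, 0.86 for Ciita and 0.75 for Ctss in muscle. In liver it was 0.85, 0.89, 0.38 and 0.60 for the same 4 genes, and 1639 other genes came closer to the chains there than Ciita did. Without soy livers 1073 and 1159 r was 0.86 for Ciita over 13 livers, and 6 other genes came closer. Of the 5 nearest genes, 3 (AW112010, Cxcl9 and Itgb7) were again among the nearest 5 without that pair in liver, and 1 (Ift22) without control muscles 1071 and 1120 in muscle.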

How the data were processed

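Gene tables hold total exon read counts, unique exon read counts, total gene read counts and RPKM for each library, deposited by the authors. Per the submitters' processing notes, reads were checked with FastQC and the build was GRCm38 (aligner not given in the sources used here). The libraries were made from total RNA with a TrueSeq RNA kit per the labels' protocols, which state no strand. Exon counts are the input of every test; the authors' RPKM (per exon length and library size) was used only to compare levels between genes. CPM is a gene's total exon reads over the library's sum of exon reads. Columns found in more than 1 table were identical, and the lowest chi-square per degree of freedom between libraries of 1 group was 10.3, so every library was counted as a sample of its own.

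Counts were fitted per tissue with edgeR 4.0.16 (R 4.3.3; filterByExpr, TMM, quasi-likelihood test), all 4 diets in 1 fit, with 12788 genes in liver, 13104 in muscle and 14150 in the joint fit. Restricted against control is the mean of the 3 restricted diets. SE is the size of the log2 fold change over the square root of F. Calls use a Benjamini-Hochberg adjusted p under 0.05 over all genes tested. On simulated counts, 73% of 2-fold and 96% of 4-fold changes were recovered in muscle for restricted against control, and 75% and 96% in liver. The changed genes were drawn at random from all genes tested, and no simulated library stood apart. These shares therefore do not give the power for the member genes. Alternatives were DESeq2 1.42.0, its size factors, no filter, unique reads, the compared diets alone, a replicate block (in the joint fit, a term for each mouse), and leaving out libraries. The member genes and all gene lists were chosen with earlier results of these data known. Named genes are all members; up to 4 genes per pathway list that passed, or else the 2 of lowest p; and the 5 genes of nearest pattern per tissue. Liver and muscle of 1 mouse are paired by the mouse number. Permutation tests used 100000 resamples. P-values of the fits within 1 tissue measure the spread between mice. Those of the joint fit without a mouse term treat both tissues of a mouse as separate libraries. With a term for each mouse, they measure the spread between mice of the difference between tissues. Permutation p-values concern the association of the tissues across mice.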

Additional observations from a re-analysis of the deposited data

Results flagged for a closer look

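Among 40 groups of 4 libraries (1 gene in 1 diet and tissue), 1 value stood far from its group: Ctss in the control muscle of mouse 1120, at 19.9 CPM beside 8.1 to 8.9 CPM in the other 3 control muscles. Its gap was 0.933 of the group's range. Chance alone flags about 1 group in 20. This library also had 1290.2 CPM of neutrophil markers and 7685 CPM of erythroid markers, and their part in the Ctss value was not tested.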

How the results depend on the processing

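In muscle, restricted against control, 1 member passed, against 6 with DESeq2, 2 with no filter on low counts, 0 with library number as a replicate block and 0 without control muscles 1071 and 1120; with single libraries left out it was 0 to 7. DESeq2 size factors and unique reads left the count at 1. All genes passing were 457, against 1267 with DESeq2, 27 with the replicate block and 2 without that pair. Same-numbered libraries did not deviate together (median r -0.05 in muscle and -0.02 in liver), so the numbers do not pair the mice. Lard against control in muscle gave 0 calls among members, and 3 with DESeq2 (H2-Eb1, H2-DMb1 and Ctss). In liver, soy against control gave 0, and 1 (Ciita) with DESeq2. Single removals gave 0 to 1 there, 0 to 1 for all restricted livers and 0 to 1 for fish against soy. Shares of all genes are not set beside these DESeq2 counts by diet or these liver removals, so they are left unweighed. For all restricted mice in liver, the median of the 8 differences was -0.12, and -0.24 (without soy liver 1073) to 0.049 (without control liver 1121) over single removals. Over single members, 2787 values kept direction and side of the threshold, 26 came to pass, 13 no longer did, and 126 values that passed neither way changed sign. Restricting the fit to the compared diets leaves restricted against control as it is. With Ciita at 4 to 61 reads per library, depth limits what could be detected for it.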
